A study of Mus musculus with 10 samples.

Results

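The main olfactory epithelium (MOE) of wild-type (WT) mice at postnatal day 14 was described from 3 of the 10 libraries of a series on enhancers of trace amine-associated receptor (Taar) genes. All libraries with the wild-type genotype in their labels were taken, and no comparison with a mutant genotype was made. The mice were labelled C57BL/6 (the study's methods give mixed inbred backgrounds and both sexes for its mouse lines), carried no deletion of TAAR enhancers 1 and 2, and were the wild-type members of the double knockout line, whose other members carry 1 or both alleles with both enhancers deleted. RNA came from the whole tissue without sorting, so fewer cells of a type and less RNA per cell cannot be told apart. The labels number the samples but do not say how many mice each one holds, and the spread between them may be partly technical.

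The MOE lines the back of the nasal cavity. Its olfactory sensory neurons (OSNs) each express a single odorant receptor (OR) or Taar gene, carry the receptor on cilia in the mucus, and signal through a cAMP cascade. Sustentacular cells support the neurons and are rich in detoxifying enzymes, Bowman's glands secrete the mucus, and globose and horizontal basal cells replace neurons throughout life.

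The 3 libraries, WT-1, WT-2 and WT-3, held 26763599, 25578707 and 23132889 counts assigned to genes. Levels are given as counts scaled to a library total of 1000000 (CPM) and as mean ± SD over n = 3 libraries. Of 24421 rows in the table, 20221 had a count in at least 1 library and 18265 had one in all 3. A count of 0 allows up to 3 counts, or 0.112 to 0.13 CPM in a library, as far as counting error alone is concerned. A longer gene gathers more reads per molecule, so levels of different genes were compared as TPM, in which each count is first divided by the exon length of the gene and the result again scaled to 1000000. All 5 genes chosen as markers of this tissue were abundant. Omp, a marker of mature OSNs, had 4489 ± 243 CPM and Gnal, the olfactory G protein alpha subunit, had 1672 ± 138 CPM. Cyp2g1, a sustentacular enzyme, had 2651 ± 177 CPM, the secreted protein gene Bpifb9b had 7646 ± 1429 CPM and Gap43, a marker of immature neurons, had 284 ± 56.4 CPM.

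Some of the most abundant genes have a near-identical copy, and the alike stretches bear on how far their counts can be read as single genes. How reads that align to both copies were counted was not stated. The stretches shown are the first 150 coding bases of each copy, spliced and read 5′ to 3′ on the coding strand, from the GENCODE M21 transcripts of mm10. Capitals mark the bases of the second copy that differ from the first.
The genes Gm14744 and 5430402E10Rik lie near the odorant binding protein gene Obp1a on chromosome X and are lipocalins of the same kind. The Gm14744 stretch lies within chrX:77864813-77865446 on the plus strand and the 5430402E10Rik stretch within chrX:77924380-77925007 on the minus strand.
Gm14744: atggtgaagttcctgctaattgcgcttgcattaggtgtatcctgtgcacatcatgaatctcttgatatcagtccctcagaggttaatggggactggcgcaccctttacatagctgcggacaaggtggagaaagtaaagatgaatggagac
5430402E10Rik: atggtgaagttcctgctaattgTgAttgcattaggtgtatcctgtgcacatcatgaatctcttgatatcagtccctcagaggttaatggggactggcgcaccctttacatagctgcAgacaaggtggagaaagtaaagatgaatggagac
Bpifb9b and Bpifb9a encode secreted proteins of the lipid-binding BPI fold family. Their stretches lie at chr2:154309361-154309510 and chr2:154259985-154260134, both on the plus strand.
Bpifb9b: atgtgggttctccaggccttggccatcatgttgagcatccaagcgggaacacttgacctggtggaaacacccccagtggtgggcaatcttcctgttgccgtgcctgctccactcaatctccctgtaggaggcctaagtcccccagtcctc
Bpifb9a: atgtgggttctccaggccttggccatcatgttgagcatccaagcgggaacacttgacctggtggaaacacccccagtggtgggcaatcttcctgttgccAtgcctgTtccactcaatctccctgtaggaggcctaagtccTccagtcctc
Cyp2a5 and Cyp2a4 encode cytochrome P450 enzymes. Their stretches lie at chr7:26835364-26835513 and chr7:26307218-26307367, both on the plus strand.
Cyp2a5: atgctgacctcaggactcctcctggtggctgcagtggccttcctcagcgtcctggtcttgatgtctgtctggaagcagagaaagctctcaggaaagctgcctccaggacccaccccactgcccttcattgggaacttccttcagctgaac
Cyp2a4: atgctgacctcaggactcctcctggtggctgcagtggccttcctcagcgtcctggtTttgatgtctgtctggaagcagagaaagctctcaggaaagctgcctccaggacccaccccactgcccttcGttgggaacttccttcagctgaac

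Over the whole coding sequence, Gm14744 and 5430402E10Rik differed at 7 of 522 bases, and their longest identical run was 166 bases. Bpifb9b and Bpifb9a differed at 13 of 1776 bases with a run of 465, and Cyp2a5 and Cyp2a4 at 23 of 1485 with a run of 216. The pairs nevertheless held their counts in very unlike ways. Cyp2a5 had 6010.1, 5552 and 6320.3 CPM in WT-1, WT-2 and WT-3, whereas Cyp2a4 had 1.31, 0.782 and 1.56 CPM. The ratio of Bpifb9b to Bpifb9a was 3.96, 3.89 and 4.02 in the 3 libraries, a narrow range, although the sum of the pair moved from 8088 CPM in WT-3 to 11574 CPM in WT-1. Gm14744 and 5430402E10Rik together reached 6963, 12824 and 4582 CPM. This sum does not depend on which copy a shared read was given to, but it would be too low if shared reads were left out. By contrast, Obp1a itself was only 52.2% identical to Gm14744 in an alignment with gaps, and its count stands apart from that pair.

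The counts were spread over many genes, with secreted proteins, P450 enzymes and neuronal genes at the head of the order. The 10 most abundant genes by mean CPM held 4.69% ± 0.60 of the counts (SD, n = 3), the 100 most abundant held 15.9% ± 0.645, and the 1000 most abundant held 43% ± 0.339. It took 1406, 1412 and 1441 genes to reach 50% of the counts in WT-1, WT-2 and WT-3. A mean of at least 1000 CPM was found for 61 genes, at least 100 CPM for 2454, at least 10 CPM for 11253 and at least 1 CPM for 15724. Protein-coding genes, as annotated, held 96.3% ± 0.197 of the counts and long intergenic noncoding RNAs 0.425% ± 0.117. No mitochondrial gene was in the table, so shares are of nuclear genes only.

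**Figure D1:**
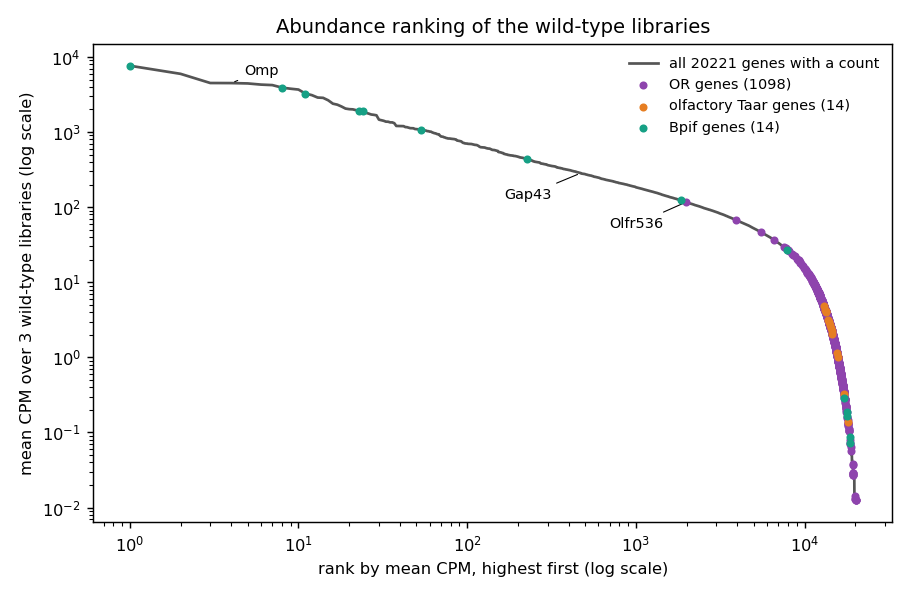
Mean CPM over the 3 wild-type libraries (vertical axis, log scale) against rank (horizontal axis, log scale), with OR, olfactory Taar and Bpif genes as coloured points. Most OR genes sit on the falling right-hand part of the curve, below 10 CPM, while the highest Bpif gene, Bpifb9b, is at rank 1 with 7646 CPM.

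Bpifb9b was the most abundant gene by counts, with 9239, 7222 and 6477 CPM in WT-1, WT-2 and WT-3. It was followed by Cyp2a5 (5961 ± 387 CPM), Eef1a1, a translation elongation factor (4499.6 ± 239 CPM), and Omp (4489 ± 243 CPM). The lowest Bpifb9b library exceeded the highest Cyp2a5 library, and the lowest Cyp2a5 library exceeded the highest Eef1a1 library. From rank 3 on, every pair of neighbours among the 30 most abundant genes had ranges that overlapped, so their ranges do not fix the order of neighbours. Genes further apart could still be ordered. The lowest Omp library (4249 CPM), for example, was above the highest Gnal library (1818 CPM). The places below Omp included Gm14744 (4441 ± 2051 CPM) and the collagen gene Col1a2 (4221 ± 1125 CPM). Bpifa1 (3904 ± 360.4 CPM), Obp1a (3774 ± 1931 CPM) and 5430402E10Rik (3682 ± 2191 CPM) were also among the first 10. The first 30 genes of the mean order included 29 of the first 30 in WT-1, 29 in WT-2 and 30 in WT-3.

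**Figure D2:**
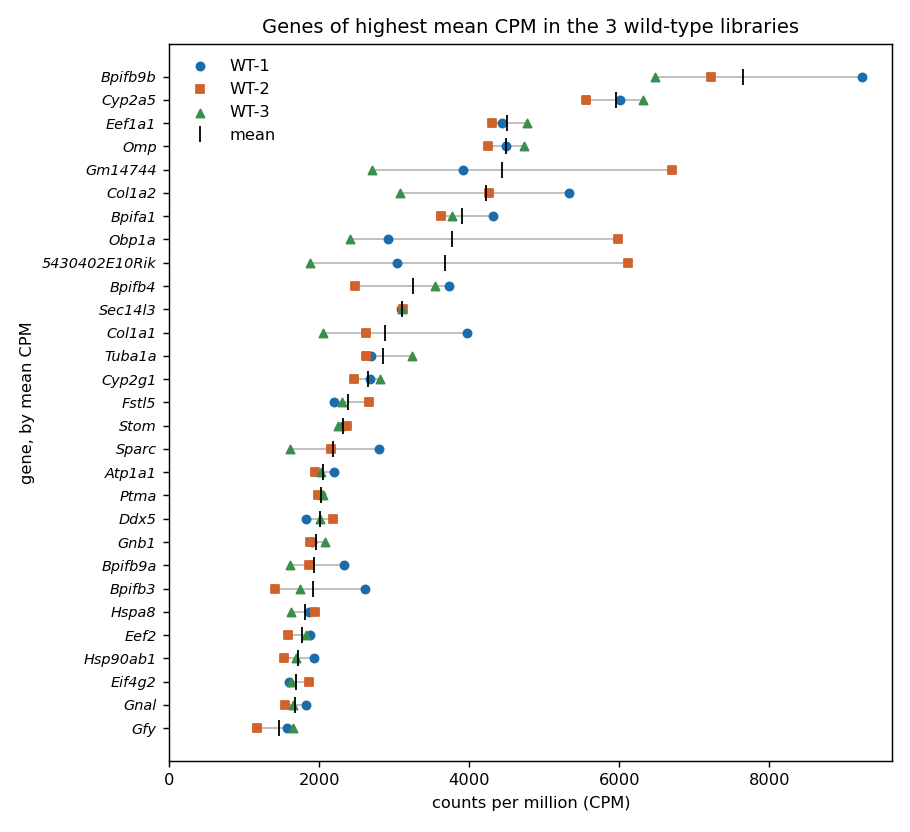
CPM of 29 of the 30 genes of highest mean CPM in each wild-type library (points) with the mean (vertical tick), and a grey line from the lowest to the highest library. Sec14l3 lies between 3094 and 3116 CPM in all 3 libraries, whereas Gm14744, Obp1a and 5430402E10Rik are highest in WT-2, at 6702, 5985 and 6121 CPM.

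Per length the order changed. Only 18 of the 30 genes of highest CPM were also among the 30 of highest TPM, with exon lengths for 95.4% of the symbols. Short transcripts for odorant binding proteins had the highest mean TPM, with Gm14744 at 15057 ± 6886 TPM, Obp1a at 13521 ± 6855 TPM and 5430402E10Rik at 12508 ± 7391 TPM. Bpifb9b followed with 10046 ± 1885 TPM, Bpifa1 with 9587 ± 907 TPM and the secretoglobin gene Scgb1c1 with 8216 ± 935 TPM. Gm14744, Obp1a and 5430402E10Rik were all ahead of the other genes in WT-2 alone. In WT-1 Bpifb9b (12159 TPM) was above Obp1a and 5430402E10Rik, and in WT-3 Bpifa1, with 9301 TPM, was above Gm14744 (9201), Obp1a (8695) and 5430402E10Rik (6418). Neighbours among the first 6 by TPM all overlapped in range, so the ranges do not set the order of neighbours. Within each library, however, Gm14744 was above Obp1a and Obp1a above 5430402E10Rik. The lowest Gm14744 library (9201 TPM) was also above the highest Scgb1c1 library (9164 TPM). Scgb1c1 was at rank 33 by CPM and rank 6 by TPM. The calcium-binding protein gene S100a5, which mature OSNs express, moved from rank 120 by CPM to rank 14 by TPM (3957 ± 646 TPM). Long transcripts went down, and Gnal moved from rank 29 by CPM to rank 292 by TPM (407 ± 34.7 TPM), or rank 191 with comprehensive transcripts. Omp was at rank 9 by TPM with 5687 ± 329.9 TPM.

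Genes of mature OSNs were abundant, and their sum varied little between libraries. All 17 genes on the mature OSN list passed 1 CPM, and their summed level was 14137, 13252 and 14250.1 CPM in WT-1, WT-2 and WT-3, with WT-2 lowest. Single genes of the list varied more than the sum. Their median CV (SD over mean, n = 3) was 8.24%, beside 8.08% over all genes from 100 to 1000 CPM. Kirrel2, an adhesion molecule gene, had 746, 848 and 517 CPM, a CV of 24.1%, while Carns1 and S100a5 had CVs of 19.3% and 16%. The 19 genes of olfactory transduction, which share members with that list, summed to 18448, 17906 and 18865 CPM. At the head of the cascade, Gnal and its partners Gnb1 and Gng13 had 1672 ± 138 CPM, 1954 ± 108 CPM and 258 ± 64.5 CPM. Ric8b, the exchange factor that acts on the olfactory G protein, had 597, 611 and 598 CPM, which are nearly equal values. Adcy3, the adenylyl cyclase of the cascade, had 886, 754 and 797 CPM. Per length Gnal and Adcy3 were almost level, with Gnal-to-Adcy3 TPM ratios of 0.924, 0.923 and 0.934. The exon length of Gnal, 11170 bases, joins its annotated isoforms, which lowers its TPM if only some were present. The order also depends on the transcripts used for length. Gnal was at rank 292 and Adcy3 at 267 by TPM here, but at 191 and 230 with the comprehensive transcripts.

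The cyclic nucleotide-gated channel of OSNs is built from the subunits Cnga2, Cnga4 and Cngb1b. Cnga2, the pore-forming subunit, had 807, 801 and 819 CPM, a CV of 1.1%. Cnga4 had 275, 242 and 238 CPM and Cngb1 327, 311 and 297 CPM. Per length the 3 levels were 717 ± 10.6 TPM, 256 ± 21 TPM and 117 ± 5.58 TPM, with no overlap between the genes. The Cnga2 level in TPM was 2.55, 2.88 and 2.99 times that of Cnga4 and 5.82, 6.08 and 6.5 times that of Cngb1 in WT-1, WT-2 and WT-3. The exon length of Cngb1 covers all its annotated isoforms, including the retinal one, which lowers its TPM if only the short olfactory form was present. Ano2, the chloride channel that amplifies the current, had 329.7 ± 14.3 CPM, and Slc12a2, which loads the cell with chloride, had 583 ± 57.5 CPM. For ending the response, the calmodulin-regulated phosphodiesterase gene Pde1c had 309 ± 14.2 CPM, Pde4a 379.9 ± 35.5 CPM and Camk2d 434 ± 29.4 CPM, while the sodium-calcium exchanger gene Slc24a4 was low at 31.7 ± 1.57 CPM.

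Genes for receptor transport and receptor choice were also measured well above the floor, with all 22 listed genes over 1 CPM and a summed level of 5986, 5689 and 6309 CPM. Rtp1 and Rtp2, which carry receptors to the cell surface, had 681, 643 and 759.8 CPM and 453, 478 and 466 CPM. Their levels per length were near each other, with Rtp1-to-Rtp2 TPM ratios of 1.17, 1.05 and 1.27. Reep1 had 80.02 ± 4.45 CPM. Lhx2 and Ldb1, which encode a homeodomain factor and its cofactor that act on OR enhancers, had 332, 309 and 328 CPM and 222, 216 and 263 CPM. The Ebf family of helix-loop-helix factors had per-length levels of 292 ± 19.3 TPM for Ebf3, 288 ± 28.6 TPM for Ebf2, 269 ± 34.7 TPM for Ebf4 and 152 ± 3.16 TPM for Ebf1. Atf5, a factor of the unfolded protein response that follows OR expression, had 1528, 1301 and 1482 CPM and the highest TPM of the list (1958 ± 171 TPM). The demethylase gene Kdm1a, which acts early in OR choice, had 117 ± 13.8 CPM, and Lbr, whose loss from the nuclear envelope goes with OR gene compaction, had 44.8 ± 4.47 CPM.

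The neuronal lineage was represented from basal cells to mature neurons. Immature OSN genes, 14 in all, summed to 4269, 4202 and 5131 CPM, highest in WT-3, and 11 of the 14 had their highest value there, as did 5987 of 15724 genes of at least 1 CPM. Gap43, which encodes a growth cone protein, had 255, 248 and 349 CPM. Tubb3 had 456 ± 74.1 CPM, Dcx 401 ± 55.2 CPM and Gng8, the gamma subunit of immature OSNs, 33.2, 24.7 and 45 CPM. Gng8 was highest in WT-3 and lowest in WT-2. The sum of the mature list was 3.31, 3.15 and 2.78 times that of the immature list by CPM and 3.8, 3.71 and 3.37 times by TPM. Globose basal cell and precursor genes summed to 898, 875 and 933 CPM, a range narrower than that of the immature list. Among them the proneural genes Neurog1 and Neurod1 had 13.7 ± 1.18 CPM and 62.5 ± 3.4 CPM, the proliferation genes Mki67 and Top2a 98.5 ± 8.64 CPM and 93.1 ± 2.7 CPM, and Neurod2 was near the floor at 0.131 ± 0.057 CPM. Horizontal basal cell genes summed to 271, 252 and 247 CPM, with Krt5 at 69.1 ± 4.35 CPM, Krt14 at 30.02 ± 1.94 CPM and Trp63 at 26.3 ± 2.91 CPM.

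**Figure D3:**
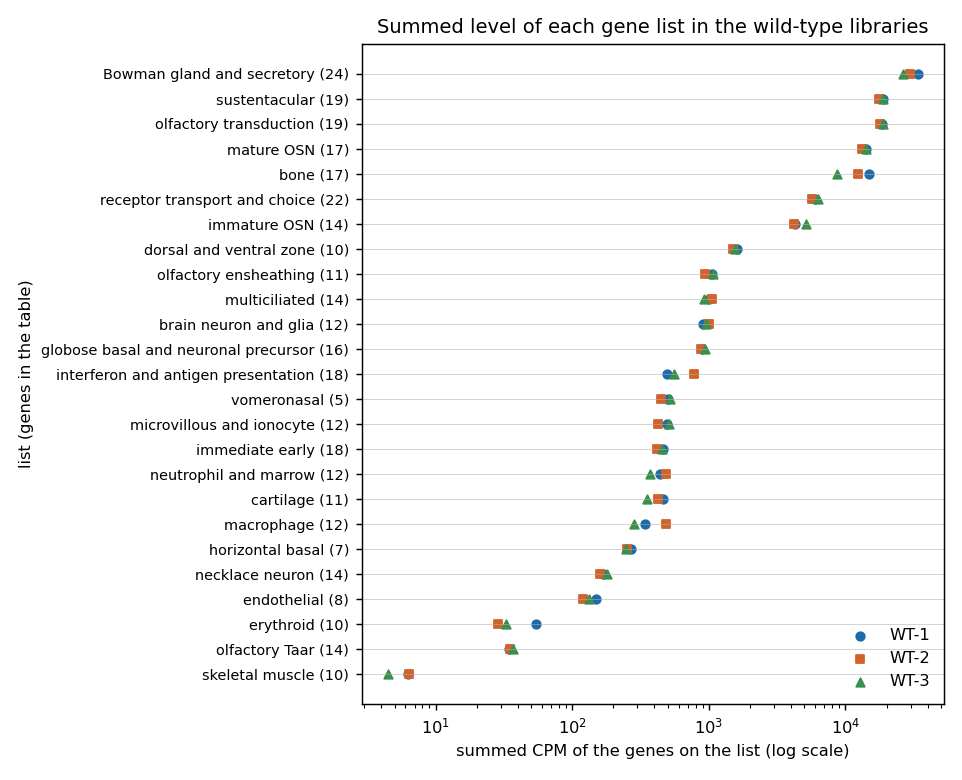
Summed CPM of each gene list (horizontal axis, log scale) in the 3 wild-type libraries, with the number of listed genes in the table in parentheses. Secretory, sustentacular, transduction, mature OSN and bone lists lie to the right of all others, and the bone, macrophage, erythroid and interferon lists show wider gaps between libraries than the mature OSN list.

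Sustentacular genes summed to 18962, 17605 and 18782 CPM, or 24766 ± 1173 TPM. Cyp2a5 was the highest gene of the list with 6010.1, 5552 and 6320.3 CPM, and Cyp2g1 had 2676, 2462 and 2814 CPM. The lipid transfer gene Sec14l3 had 3094, 3116 and 3104 CPM, and its CV of 0.347% was no larger than counting error. Cyp2f2 had 1373 ± 149 CPM, the carbonyl reductase gene Cbr2 1345 ± 87.6 CPM, the glucuronosyltransferase gene Ugt2a1 1093 ± 197 CPM and the carboxylesterase gene Ces1d 703 ± 32.1 CPM. All 105 P450 genes in the table summed to 11571, 10509 and 11767 CPM, of which 69 had a count. The glutathione transferase genes summed to 1975, 1638 and 2041 CPM, led by Gstm1 with 1013 ± 153 CPM.

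Bowman's gland and secretory genes formed the highest list by summed CPM and by summed TPM. Of 27 listed genes, 24 were in the table, and they summed to 33962, 29492 and 26482 CPM, highest in WT-1. Scgb1a1, the airway secretoglobin, had 0 counts in all 3 libraries, which allows up to 0.0397 CPM over the libraries together. The 14 Bpif genes alone summed to 24953, 17536 and 18429.5 CPM, which was 6.43, 3.87 and 4.44 times the summed CPM of all OR genes in the same library. Per length the Bpif genes summed to 31712 ± 6926 TPM and the ORs with a length to 4064 ± 297 TPM, with ratios of 10.6, 6.24 and 6.9. Besides Bpifb9b, Bpifa1 had 4311, 3624 and 3776 CPM, Bpifb4 3736, 2476 and 3546 CPM, Bpifb3 2605, 1416 and 1741 CPM and Bpifb6 1206, 823 and 1158 CPM. WT-1 was the highest library for each of these genes, as it was for 4458 of 15724 genes of at least 1 CPM. The glutathione peroxidase gene Gpx6 had 978 ± 128 CPM and the mucin gene Muc5b 375 ± 52.9 CPM.

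The odorant binding protein genes split by library. The 4 genes on chromosome X (Obp1a, Gm14744, 5430402E10Rik and Gm14743) summed to 10438, 20241 and 7471 CPM, and each of the 4 was highest in WT-2 and lowest in WT-3. Obp1a had 2922, 5985 and 2416 CPM and Gm14743 had 554, 1433 and 473 CPM. Obp2a and Obp2b, which lie on chromosome 2, had 1581, 965 and 822 CPM and 1415, 952 and 607 CPM, with WT-1 highest for both. The ratio of Obp2a to Obp1a was 0.541, 0.161 and 0.34 in WT-1, WT-2 and WT-3. The lipocalins Lcn11, Lcn3 and Lcn4 had 469, 632 and 388 CPM, 379, 341 and 231 CPM and 88.5, 162 and 30.5 CPM. Among 20 major urinary protein genes 4 had a count, and Mup5 (316, 1415 and 585 CPM) and Mup4 (669.9, 916 and 523 CPM) held nearly all of the family's counts.

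Receptor families were dominated by the ORs. The 1125 OR genes (symbols beginning Olfr) summed to 3883, 4534 and 4152 CPM, or 0.419% ± 0.0327 of all counts. WT-2 was highest for the OR total although it was lowest for Omp and for the mature OSN list. The OR total was 0.866, 1.07 and 0.877 times the CPM of Omp alone and 0.275, 0.342 and 0.291 times the mature OSN sum. Per length these ratios were 0.658, 0.807 and 0.686 and 0.223, 0.276 and 0.228. The 14 olfactory Taar genes summed to 34.2, 35.2 and 36.7 CPM, and the OR total was 114, 129 and 113 times this by CPM. Per length it was 42.4, 48.1 and 43.4 times the Taar total. These are ratios of totals over 1125 and 14 genes. The median gene had 2.53 CPM among the ORs and 2.61 CPM among the olfactory Taar genes. All per-length OR values rest on GENCODE exon lengths, with a median of 2917 bases per OR. The annotation used for counting was not stated, and these values would be too low if shorter OR models were counted. Taar6 (5.04, 4.61 and 4.8 CPM) and Taar7a (3.66, 5.51 and 3.67 CPM) were the highest Taar genes by mean CPM and mean TPM, and Taar8a was the lowest with 0.0747, 0.0782 and 0.259 CPM. The ranges of Taar6, Taar7a, Taar7f and Taar7d overlapped, so no order among them can be read, and the Taar7 and Taar8 genes are close copies whose reads may be split between them.

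Receptors of the vomeronasal organ were close to absent. Of 211 Vmn1r genes 24 had a count, and the family summed to 1.94, 1.64 and 1.6 CPM. Of 127 Vmn2r genes 41 had a count, with a sum of 13.4, 17.6 and 14 CPM, and Vmn2r29 alone had 6.46, 9.7 and 6.35 CPM. Trpc2, the vomeronasal channel gene, had 0 counts in all 3 libraries, but its exons overlap those of Xndc1 and Xntrpc, so this value says little about the transcript. The 5 genes of the vomeronasal list summed to 502, 448 and 516 CPM, nearly all from the G protein genes Gnao1 (348 ± 32.8 CPM) and Gnai2 (110.0 ± 12.9 CPM), which other neurons also express. The taste receptor families Tas1r and Tas2r had 0.673, 0.938 and 1.82 CPM and 0.673, 1.06 and 0.519 CPM, and the formyl peptide receptors 0.486, 0.469 and 0.865 CPM. Necklace neurons are OSNs of another kind that use the guanylyl cyclase Gucy2d and Ms4a proteins in place of ORs. Gucy2d had 3.18, 2.89 and 4.93 CPM and the other cyclase gene Gucy1b2 3.1, 4.18 and 5.23 CPM. The 16 Ms4a genes summed to 14.8, 24.3 and 13.5 CPM, led by Ms4a6c and Ms4a7, which macrophages also express, and WT-2 was highest, as it was for the macrophage list. The 14 necklace neuron genes in the table summed to 167, 159 and 179 CPM, of which Car2 gave 118, 102 and 122 CPM.

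The OR repertoire was broad. Counts were found for 1098 of 1125 OR genes, 1075 had a count in all 3 libraries and 1049 were above 3 counts in all 3. The median OR had 2.53 CPM, with quartiles of 1.2 and 4.43 CPM. A mean of at least 1 CPM was reached by 887 ORs and at least 10 CPM by 56. The 10 highest ORs held 10.2% of the OR counts, the 100 highest 35%, and 192 ORs together held 50%. The 27 ORs without a count in any library include names that the annotation used here does not place, and each allows up to 0.0397 CPM over the 3 libraries.

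Olfr536 stood apart at the head of the repertoire by CPM, though not per length. It lies at chr7:140500849-140507396 on the minus strand of mm10 and had 116, 117 and 117 CPM in WT-1, WT-2 and WT-3. This was 46.2 times the median OR by CPM, and its CV of 0.717% was below the 1.85% that counting alone would give on average. Olfr1507 (chr14:52488791-52495749, minus strand) was next with 80.1, 68.7 and 52.8 CPM, and Olfr727 (chr14:50123186-50128746, plus strand) followed with 44.1, 53.5 and 43.2 CPM. Every Olfr536 library was above every Olfr1507 library, but the ranges of Olfr1507 and Olfr727 overlapped. Olfr1372-ps1, named as a pseudogene, was at rank 4 with 31.2, 39.4 and 38.5 CPM, and its range lay below that of Olfr727. From there to the OR of rank 20, Olfr1110 (15.7, 19.4 and 16.3 CPM), each gene overlapped its neighbour. Per length the order of the first 3 was the same, at 73.9 ± 0.679 TPM, 63.4 ± 12.9 TPM and 48.7 ± 5.69 TPM by mean, but Olfr1507 in WT-1 (75.8 TPM) was above every Olfr536 library (at most 74.7 TPM). Olfr1372-ps1 fell to 10.1 ± 1.24 TPM. Olfr166 (25.9, 37 and 24.8 CPM), Olfr726 (27.4, 31.8 and 25.7 CPM) and Olfr533 (26.7, 32.3 and 21.3 CPM) followed by CPM. WT-2 was the highest library for 18 of the 20 ORs, and the exceptions were Olfr536 and Olfr1507.

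**Figure D4:**
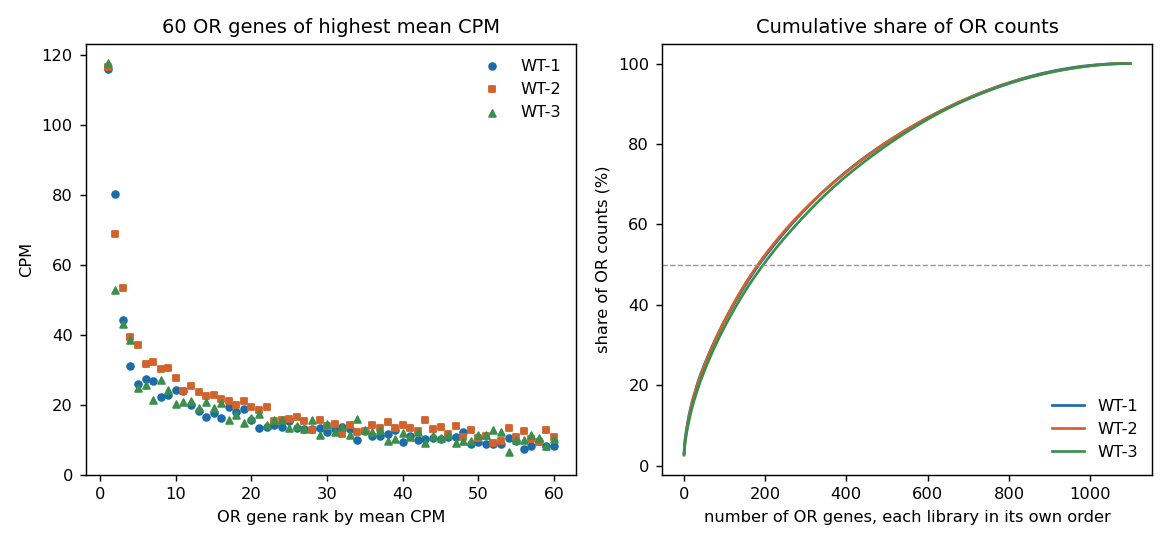
Left, CPM of the 60 OR genes of highest mean CPM in each wild-type library against rank. Right, cumulative share of OR counts (%) against the number of OR genes, each library in its own order, with a dashed line at 50%. Olfr536 is the lone point near 117 CPM at rank 1, and the 3 cumulative curves nearly coincide.

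The higher OR total of WT-2 was shared by many receptors. Among 887 ORs of at least 1 CPM, 47.7% had their highest value in WT-2, 37.3% in WT-3 and 15% in WT-1. Among 12855 other genes between 1 CPM and the level of Olfr536 the shares were 32.3%, 37.9% and 29.8%. The median log2 difference between WT-2 and WT-1 was 0.23 over the ORs. Between WT-3 and WT-1 the OR median was 0.13, and the other genes had a median of 0.02. The order of the ORs was much the same in each library, with Spearman's rho across the 1125 OR genes of 0.955 for WT-1 and WT-2, 0.932 for WT-1 and WT-3, and 0.933 for WT-2 and WT-3. These are across genes, which are not independent replicates.

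By position, 1113 ORs had a single place in the annotation, and joining neighbours less than 500000 bases apart gave 54 clusters, 22 of them with at least 10 ORs. The cluster at chr2:85330779-90403897 was the largest, with 222 ORs and 771 ± 74.6 CPM in all, 18.4% of the OR total. The cluster at chr7:102476579-105369355, which holds Olfr578 and the class I (fish-like) ORs, had 124 ORs and 364 ± 23.9 CPM. It was highest in WT-3 (391 CPM), whereas the chromosome 2 cluster was highest in WT-2 (845 CPM). Clusters with few genes could hold as much. The cluster at chr14:49894258-51074435 had 28 ORs, Olfr727 among them, and 234 ± 34.2 CPM. The cluster at chr7:140159999-140705606 had 19 ORs and 226 ± 6.28 CPM, of which Olfr536 gave 117 CPM. Over the clusters with at least 10 ORs the median OR level ranged from 1.25 to 4.62 CPM. By chromosome, the median OR had 4.2 CPM on chromosome 14 (39 ORs) and 1.92 CPM on chromosome 9 (135 ORs).

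Gene models limit how far OR levels can be compared. In RefSeq, 906 of 1112 ORs span at most 1100 bases, about a bare coding region, and these had a median of 2.36 CPM, against 3.62 CPM for the 206 with longer models. In GENCODE, which adds untranslated exons to most ORs, 99 of 1113 had at most 1100 exon bases, with a median of 0.344 CPM, against 2.77 CPM for the rest. The annotation used for counting was not stated, and the part of model length in the OR order was not tested beyond these values. Of the 20 highest ORs, 11 have a RefSeq span of at most 1100 bases, Olfr727 and Olfr166 among them, while Olfr536 and Olfr1507 have 6466 and 5761 bases.

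Zonal genes were found from both sides of the epithelium. The dorsal marker Nqo1 had 214, 184 and 270.0 CPM and the dorsal gene Acsm4 497, 403 and 480.4 CPM. Ncam2 and Nrp2, markers of more ventral OSNs, had 84.5, 111 and 88.9 CPM and 206, 195 and 161 CPM. The 10 genes of the zone list summed to 1607, 1506 and 1559 CPM.

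Other cell types of the nasal cavity were present in different amounts. The 12 genes of microvillous cells and ionocytes summed to 497, 428 and 507 CPM, most of it from Krt18, which many epithelia express, while the ionocyte genes Ascl3 and Foxi1 had 23.9 ± 3.25 CPM and 24.3 ± 3.64 CPM and the chemosensory factor gene Pou2f3 9.38 ± 0.587 CPM. The 14 multiciliated cell genes in the table summed to 999.9, 1046 and 923 CPM, with Foxj1, the master factor of motile cilia, at 146 ± 17.8 CPM. Olfactory ensheathing glia genes summed to 1057, 929.6 and 1081 CPM, led by Apod (578 ± 78.7 CPM) and Fabp7 (183 ± 12.5 CPM). The 8 endothelial genes summed to 150.2, 119 and 134 CPM.

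Bone genes were abundant and differed between libraries. The 17 bone genes summed to 14984, 12269.7 and 8733 CPM and were lowest in WT-3 in sum. This was 1.06, 0.926 and 0.613 times the mature OSN sum by CPM and 0.706, 0.668 and 0.412 times by TPM. Col1a2 and Col1a1 had 5325, 4261 and 3076 CPM and 3967, 2625 and 2051 CPM, and Sparc had 2797, 2160.2 and 1610.1 CPM, each of them highest in WT-1 and lowest in WT-3. Fibroblasts share these 3 genes, which had means of 4221, 2881 and 2189 CPM and gave most of the list's mean of 11996 CPM. The sum, its order over the libraries and its ratio to the mature OSN sum thus rest mainly on them. Genes of osteoblasts and osteoclasts were measured too, with Ibsp at 457, 428 and 178 CPM and the osteoclast protease gene Ctsk at 282, 293 and 187 CPM. Osteocalcin, counted as its copies Bglap and Bglap2, had 49.5 ± 2.0 CPM and 51.4 ± 1.95 CPM. Cartilage genes were far lower, at 464, 424 and 355 CPM for 11 genes. Neutrophil and marrow genes summed to 438, 483 and 369 CPM, of which Ltf, which glands also make, held 366 ± 41.3 CPM, while Elane and Mpo were near the floor.

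Of the 10 genes on the erythroid list, 3 reached 1 CPM. All 3 were highest in WT-1, as were 4458 of 15724 genes of at least 1 CPM. The 6 adult globin genes on the list (Hba-a1, Hba-a2, Hbb-bs, Hbb-bt, Hbb-b1 and Hbb-b2) had 0 counts in every library, which allows up to 0.0397 CPM each over the 3 libraries. Alas2, the erythroid heme synthesis enzyme, had 31.6, 11 and 16.8 CPM and Slc4a1, the red cell anion exchanger, 16.2, 12.9 and 10.5 CPM. The 10 genes of the list summed to 53.8, 28.4 and 32.6 CPM. The globin genes come in near-identical copies, and the handling of reads that align to several places was not stated.

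Muscle and brain gave little. The 10 skeletal muscle genes summed to 6.31, 6.33 and 4.5 CPM, with Myh4 and Myh8 at 0 counts. The list for brain neurons and glia summed to 901, 1004 and 952 CPM, but 524 CPM came from Aqp4, which the MOE itself expresses, and most of the rest from Syt1 (215 ± 4.34 CPM) and Snap25 (156 ± 19.7 CPM), which neurons in general express. Markers of the brain alone were low, with Gad1 at 0.533 ± 0.148 CPM, Slc17a7 at 0.737 ± 0.217 CPM, the myelin gene Mog at 0.0806 ± 0.0703 CPM and Th at 0.232 ± 0.283 CPM.

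Most genes varied by a small part of their level between libraries. Over 15724 genes of at least 1 CPM the median coefficient of variation (CV, SD over mean, n = 3) was 10.5%, where counting alone gives a median of 3.82%. By level, the median CV was 17.9% for 4471 genes from 1 to 10 CPM, 9.27% for 8799 genes from 10 to 100 CPM, 8.08% for 2393 genes from 100 to 1000 CPM and 9.13% for the 61 genes above. The spread thus stopped falling at high levels, and 14.8% of the genes above 1000 CPM had a CV over 20%, against 3.59% of those from 100 to 1000 CPM. The common biological coefficient of variation from edgeR was 14.6%. Each pair of libraries differed by more than counting noise, with a chi-square per degree of freedom of 27.2 for WT-1 and WT-2, 25.5 for WT-1 and WT-3 and 29.3 for WT-2 and WT-3. ORs from 1 to 10 CPM (831 genes) had a median CV of 19.96% and other genes of that range (3640 genes) 17.4%, but the ORs lay lower in the range, with a median of 3.03 CPM against 4.04 CPM. With the counting part removed, the median CV was 16.4% for these ORs and 13.6% for the other genes.

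**Figure D5:**
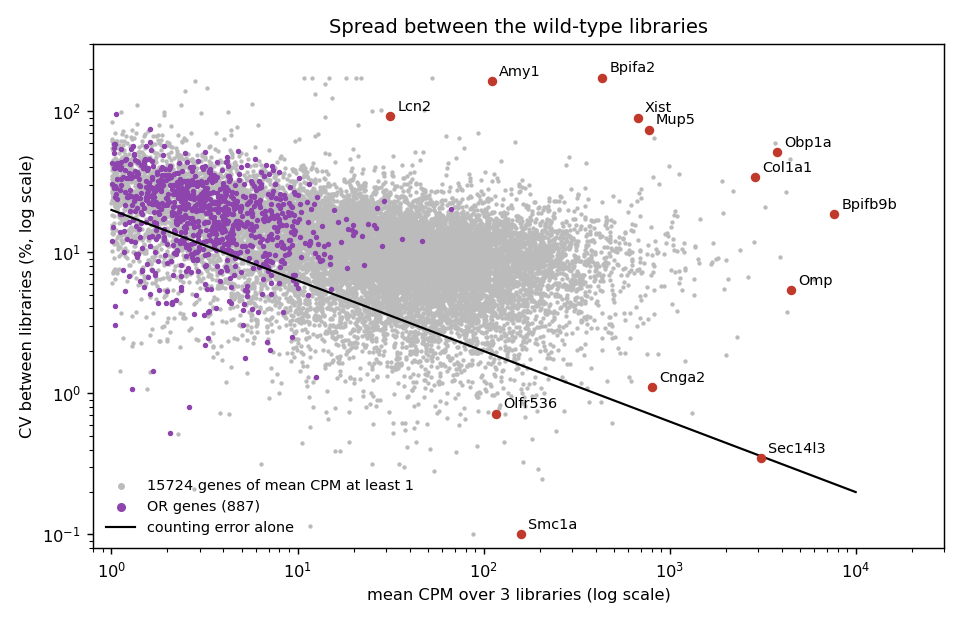
CV between the 3 wild-type libraries (%, vertical axis, log scale) against mean CPM (horizontal axis, log scale) for genes of mean CPM at least 1, with OR genes in purple, named genes in red and the CV of counting error alone as a line. Bpifa2, Amy1, Xist and Mup5 lie far above the cloud, and Sec14l3, Olfr536 and Smc1a on or below the line.

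The genes of lowest spread among those of at least 100 CPM were housekeeping genes and a few of this tissue. Smc1a, a cohesin subunit gene, had 159, 159 and 159 CPM, and Pitpna, Setd8, Cct3, Ctcf, Vapb and Mlxip were likewise within counting error. Sec14l3, Id4 and Pcp4l1 were in the same group of 10, with CVs of 0.347%, 0.537% and 0.614%. With 3 libraries, some of 2454 genes can have so low a CV without being steadier than others, and the values describe these libraries alone.

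The 20 genes of highest spread beyond counting error, among 11253 genes of at least 10 CPM, fell mostly into a few groups. The first group was high in WT-1 alone. It held Bpifa2 (1302, 1.52 and 1.08 CPM), Amy1, a salivary amylase gene (320.0, 5.98 and 6.4 CPM), Smr3a (157, 0.782 and 0.432 CPM), Dcpp1 (105, 16.7 and 23.1 CPM) and Pip (31.2, 4.85 and 1.08 CPM). These are known from salivary and other glands of the head. Cst10, BC037156, 2310057J18Rik and Dnase1 had the same pattern, with 44.5, 0 and 0 CPM for Cst10 and 37.3, 4.1 and 4.37 CPM for Dnase1. Within the Bpif family, Bpifa2 made up 1302 of the 24953 CPM in WT-1.

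The second group was on the sex chromosomes. Xist, the RNA that coats the inactive X chromosome, had 0.897, 835 and 1187 CPM, whereas the Y-linked genes Ddx3y, Eif2s3y, Kdm5d and Uty had 61.8, 66.1, 36.1 and 32.3 CPM in WT-1 and at most 0.0391 CPM in WT-2 and WT-3. The sex of the mice is not in the labels, and WT-1 is the lone library with Y-linked counts, so in these 3 libraries sex cannot be told apart from anything else that sets WT-1 apart, the salivary genes included. For the 4 odorant binding protein genes on chromosome X and for Mup4, WT-1 lay between WT-2 and WT-3, and Mup5 was lowest in WT-1. A part of sex in these values was not tested.

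The third group was highest in WT-2, and in it Chil4 and Chil1 were also far lower in WT-3 than in WT-1. Iigp1, an interferon-inducible GTPase gene, had 8.97, 54 and 12.1 CPM, the antibacterial lipocalin gene Lcn2 15.3, 64.9 and 14 CPM, and the chitinase-like genes Chil4 and Chil1 24.1, 58.3 and 1.64 CPM and 18.4, 39 and 5.71 CPM. Mup5 had 316, 1415 and 585 CPM. The 18 genes of interferon response and antigen presentation summed to 498, 778 and 556 CPM, and 17 of the 18 were highest in WT-2, Stat2 being the exception. Over all genes, 5279 of 15724 genes of at least 1 CPM were highest there. B2m had 124, 213 and 143 CPM and H2-K1 119.9, 220.4 and 144 CPM. Macrophage genes summed to 341, 487 and 283 CPM over 12 genes, 10 of which were highest in WT-2, with Cd74 at 50.8, 96.2 and 46.6 CPM and Lyz2 at 101, 140.5 and 65 CPM. The OR total and the 4 X-linked odorant binding protein genes were also highest in this library. Whether these patterns share a source was not tested.

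Among the genes that varied most, WT-3 was most often the lowest library. Of 153 genes of at least 10 CPM with a CV of at least 30% beyond counting error (1.36% of 11253), 93 were lowest in WT-3, 32 in WT-1 and 28 in WT-2. Over all 11253 genes the shares lowest in WT-3, WT-1 and WT-2 were 30.9%, 30.5% and 38.6%, and WT-3 was the highest library for 39.3%. Of the bone genes, 0 of 17 were highest in WT-3. Rpl13, a ribosomal protein gene, had 376, 361 and 132 CPM, although the 86 ribosomal protein genes together had 18701, 18635 and 21302 CPM and were highest in WT-3. Srp54b was 1 of the 20 and had 3.33, 10.5 and 28.2 CPM, with the highest value in WT-3. Another ribosomal protein gene, Rps27, had 1.49, 2.11 and 1.12 CPM, where the median of the 86 genes was 204 CPM. The handling of reads that align to several places was not stated, so the counts of Rps27 and Rpl13 may not give the levels of their transcripts. This was not tested.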

How the data were processed

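RNA of the whole MOE was made into directional libraries after poly(A) selection. The authors aligned the reads to mm10 with HISAT2 2.1.0 and counted them per gene with featureCounts of Subread 1.6.2, and the deposited raw counts were used. The counting annotation, strand setting and handling of multiple alignments are not given in the sources used here. The authors also deposited a normalized signal, each count divided by 1 size factor per library from DESeq2 1.20.0, which served as an alternative scaling. The submitters' processing notes also name Trimmomatic 0.36.

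Groups came from the sample titles, and the 3 wild-type libraries were described without a test. CPM used the library total of 24421 rows, 27 with names turned into dates. TPM used union exon lengths of GENCODE M21 basic transcripts (97.2% to 97.3% of the counts). Spread beyond counting error was the variance of the 3 CPM values less their mean Poisson variance. On simulated counts it placed 100% of 200 genes raised 4-fold in 1 library among the 200 most variable of 11210. R 4.3.3, edgeR 4.0.16 (TMM, dispersion) and DESeq2 1.42.0 (size factors) were used. Counting errors and floors cover counting alone, and no molecular identifiers are stated for these reads. Alternatives were other scalings, count minimums, gene lengths and leaving out each library.

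The members and the gene lists were chosen with earlier results of these data known. Named are the 30 genes of highest mean CPM, listed genes, the 20 highest ORs, the 14 olfactory Taar genes, the 3 highest genes of other receptor families, the 20 genes of highest spread beyond counting error (mean of at least 10 CPM) and the 10 of lowest CV (at least 100 CPM). Gm14743, Mup4, Gstm1, Gucy1b2, Rps27 and Rpl13 were named after their values were seen. Some genes under this rule are not reported here.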

Additional observations from a re-analysis of the deposited data

How the results depend on the processing

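Scaling hardly moved the levels. Of 3117 alternative values, 3049 lay within 1 SD over the 3 libraries of the value reported, or, for counts and CVs, within 1.5 times. Among the 3117, 1335 came from leaving out 1 library, and 0 of these moved. A mean over 3 libraries cannot shift by 1 SD when 1 is left out, so for means that result was fixed beforehand. Leaving the 10 most abundant genes out of the library total raised every CPM and took sums of small SD past 1 SD, to 37.1 CPM for the olfactory Taar genes, 14561 for mature OSN, 19310.4 for transduction, 946 for globose basal, 19356 for sustentacular and 1634 for zone genes. Without the Taar7 and Taar8 genes the Taar total was 15.6 CPM, since fewer genes were summed. By TPM, 18 of the 30 most abundant genes were shared, as with comprehensive transcripts, a length set chosen after the data were seen. With 1 library left out in turn, the OR total ranged over 4017 to 4343 CPM, the secretory sum over 27987 to 31727, the bone sum over 10502 to 13627 and the median CV over 7.96 to 9.69%. The table holds no mitochondrial genes, so the alternatives without them could not be run. No paired analysis was possible because there is 1 group and the results come from no test. With 3 libraries, an SD is itself uncertain, and ORs below 1 CPM rest on few counts.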

Other observations

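Immediate early genes, which neurons switch on with activity, were present at low to moderate levels. The 18 genes of the list summed to 464, 415 and 454 CPM in WT-1, WT-2 and WT-3, a narrow range, and Jun gave 181, 153 and 197 CPM of it. Fos had 6.58, 4.34 and 5.01 CPM, Egr1 15.3, 14.8 and 14.1 CPM, Nr4a1 26.1, 27.6 and 25.7 CPM, Npas4 2.43, 2.19 and 3.16 CPM and Arc 5.16, 3.52 and 3.07 CPM. WT-1 had the highest value for 9 of the 16 genes of at least 1 CPM, beside 4458 of 15724 genes of at least 1 CPM overall. The spread of Fos, a CV of 21.6%, was larger than that of Nr4a1, 3.89%, and Dusp1, 4.9%, with no test made of the difference.

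Chromatin genes with a part in OR silencing, on the list of receptor transport and choice, were present. The H3K9 methyltransferase genes Ehmt1, Ehmt2 and Setdb1 had 59.5, 56.5 and 61.3 CPM, 120.4, 107 and 129 CPM and 80.5, 77.6 and 81.4 CPM, and Cbx5, which encodes heterochromatin protein 1 alpha, 93.7, 101 and 98.3 CPM. Their CVs were 4.11%, 9.57%, 2.45% and 3.98%, beside medians of 9.27% for all genes from 10 to 100 CPM and 8.08% from 100 to 1000 CPM. Emx2, a homeobox gene needed for normal OR expression, had 99.99, 82.6 and 108 CPM.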
